A study of Mus musculus with 15 samples.

Results

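Interferon-stimulated genes are the genes that a cell switches on when interferon binds its surface receptors. The list examined here held 42 of them, chosen by name as antiviral effectors, nucleic acid sensors, interferon-induced GTPases, ubiquitin and ISG15 enzymes, ADP-ribosyltransferases, immunoproteasome genes and related factors, with chemokines, receptors and Stat genes left out. Of these, 37 were read by a probe set that carries a single gene symbol, among 19938 genes measured in the same way. Isg15 shares its probe set with Gm9706, Gbp2 shares one with Gbp2b, and Igtp and Irgm2 share one with each other, while Ifi44 had no listed probe set. No value is given for these 5 genes.

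The RNA came from epithelial cells loosened with EDTA from the small intestine of wild-type BALB/c mice at 10 weeks of age. The controls were untreated, and the other groups had received RANKL, a TNF-family cytokine that drives the formation of M cells, as a GST fusion protein injected intraperitoneally for 1, 2, 3 or 4 days. Each of the 5 groups had 3 Affymetrix arrays. No group received GST or vehicle alone, so the injections and GST cannot be told apart from RANKL, and it is not stated that different mice supplied the 3 arrays of each group. P-values therefore measure the spread between these samples, which may be technical.

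Type I and type III interferons act through the Jak kinases and a complex that holds Stat2 and Irf9 and binds a DNA element called ISRE, built around spaced copies of TTTC. Type II interferon acts on genes that carry the GAS element. The intestinal epithelium responds strongly to type III interferon, and part of the interferon-stimulated programme is active there without infection. Usp18, itself a product of the programme, dampens signalling at the type I receptor.

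Promoters show which of these elements lie near the gene starts. RefSeq windows of 300 bases on GRCm38.p6, 250 before and 50 after the start, were found for 35 of the 42 genes, and for 30 of the 37 measured ones. The ISRE core, searched on both strands as TTTC, any 2 bases and TTTC again, was present in 16 of the 35 genes (45.7%), against 3.99% of 27025 genes and 3.44% of all 32851 windows. The GAS core, searched as TTCNNNGAA on both strands, was present in 10 of the 35 (28.6%), against 9.55% of genes and 8.3% of windows. A match describes letters only, and the matches of both motifs overlapped in Bst2 and Ifitm3. These 4 stretches of 160 bases just upstream of the start are shown because their genes carry some of the largest contrasts described later: Ifit1 and Ifit3 between the day 4 arrays, and Irgm1 and Irf1 between day 1 and control. Capitals mark the ISRE core in the first 3 and the GAS core in the last, written 5′ to 3′ along the gene's strand.

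Ifit1, chr19:34640729-34640888, plus strand: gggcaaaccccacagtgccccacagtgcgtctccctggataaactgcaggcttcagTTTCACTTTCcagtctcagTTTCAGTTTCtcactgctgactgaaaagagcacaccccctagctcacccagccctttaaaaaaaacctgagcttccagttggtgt
Ifit3, chr19:34583369-34583528, plus strand: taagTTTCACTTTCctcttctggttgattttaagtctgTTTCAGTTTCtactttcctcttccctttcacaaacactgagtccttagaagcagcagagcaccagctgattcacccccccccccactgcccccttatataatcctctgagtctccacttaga
Irgm1, chr11:48871421-48871580, minus strand: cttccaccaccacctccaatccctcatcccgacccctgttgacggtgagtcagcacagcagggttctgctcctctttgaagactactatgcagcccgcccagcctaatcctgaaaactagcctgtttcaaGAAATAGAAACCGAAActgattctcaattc
Irf1, chr11:53769854-53770013, plus strand: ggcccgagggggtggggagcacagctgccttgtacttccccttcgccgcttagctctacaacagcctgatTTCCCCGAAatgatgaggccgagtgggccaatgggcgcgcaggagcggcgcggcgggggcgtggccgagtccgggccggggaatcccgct

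Ifit1 and Ifit3 each carried 2 copies of the core, and the 2 copies in Irgm1 overlapped and lay on the opposite strand. Irf1 carried no ISRE core in its window. Several of the genes are also direct neighbours in the genome, namely Rsad2 and Cmpk2, Parp14, Dtx3l and Parp9, Psmb9, Tap1 and Psmb8, Ifit2 and Ifit3, Oasl2 and Oasl1, and Oas2 and Oas3. Neighbours did not always have the same sign: on day 2 Ifit2 differed from control by 1.33 and Ifit3 by -0.13.

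All levels are log2 of the deposited intensity after quantile normalization, and differences are on the same log2 scale. Median intensities of single arrays lay between 146.9 and 166.9. Probe sets of Y chromosome genes, at 4.88 to 5.50, served as a measure of background, since Xist read 11.93 or more. The 7 epithelial markers averaged 12.08 to 12.31 on every array, and none of them was called in any comparison with control. RANKL day 1 replicate 2 stood apart over all genes, with the narrowest interquartile range of log2 values, 1.95. RANKL day 4 replicate 2 stood apart in the interferon-stimulated genes themselves, and results that rest on it are given with and without it.

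The mean level of the measured genes was below control on day 1 and above it on day 2, though single genes rarely passed the test. This mean, taken against the control mean, was -0.26, -0.47 and -0.48 on the 3 day 1 arrays and 0.23, 0.20 and 0.29 on the 3 day 2 arrays. On day 3 it was 0.03, -0.45 and -0.20, and on day 4 it was -0.43, 0.56 and -0.60. The control arrays themselves spread from -0.06 to 0.07. Day 1 lay below and day 2 above every control array, while days 3 and 4 were mixed. By group means, 33 of 37 genes were below control on day 1, above day 1 on day 2 and below day 2 on day 3, against 14.2% of all genes.

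**Figure D1:**
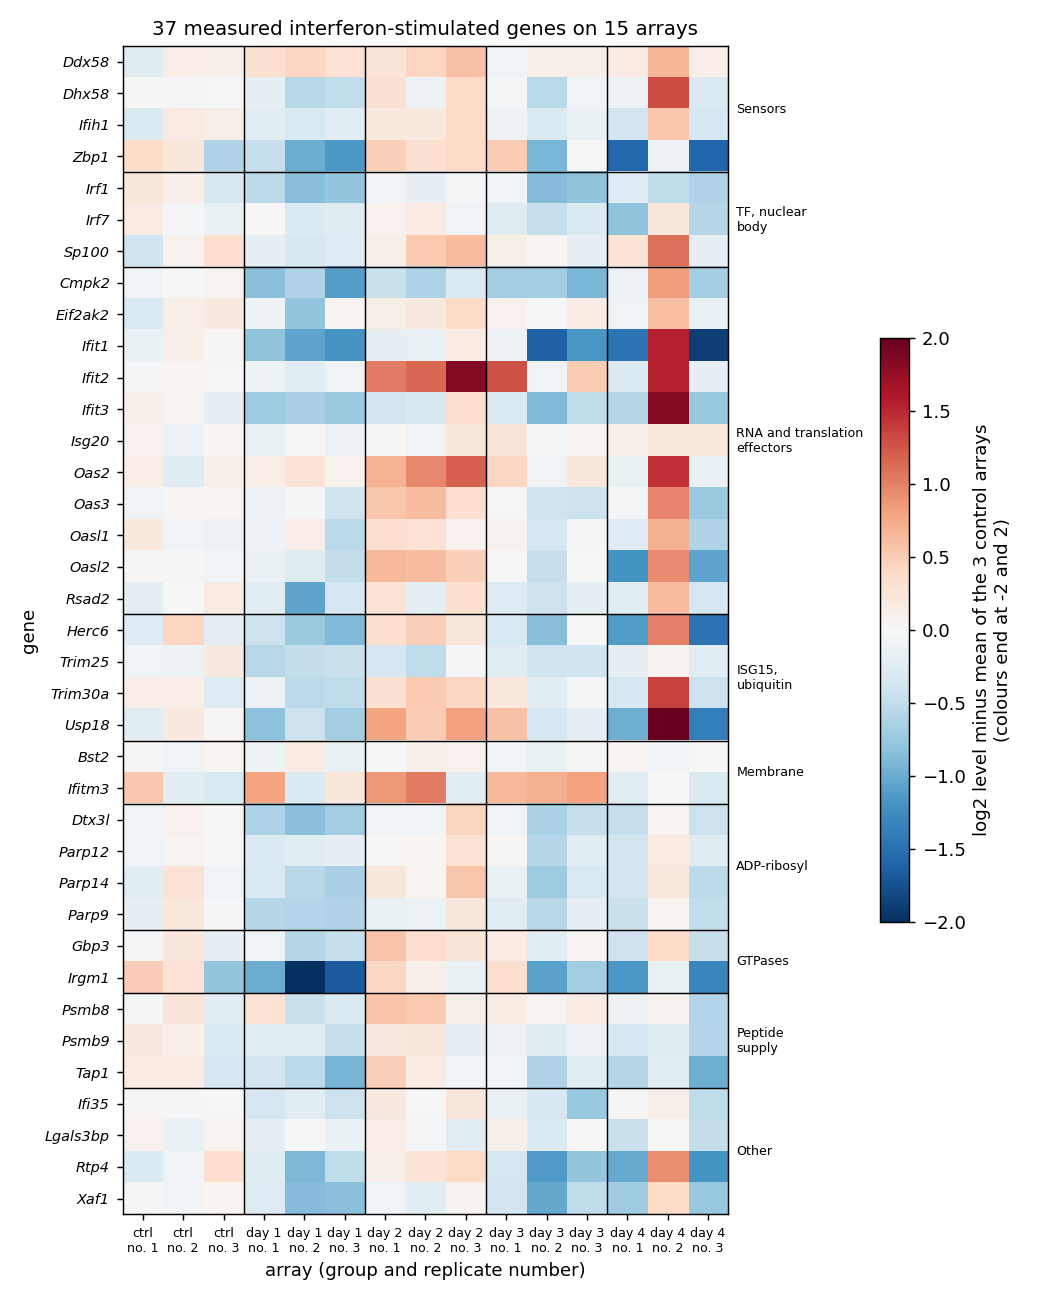
Each row is 1 of 37 measured interferon-stimulated genes, grouped by role, and each column 1 of 15 arrays. Colour gives the log2 level minus the mean of the 3 control arrays, and the day 1 columns are mostly blue, the day 2 columns mostly red, and day 4 replicate 2 is red between 2 blue columns.

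After 1 day of RANKL, the interferon-stimulated genes were lower than in controls, by a median of 0.37 on the log2 scale (median difference -0.37, against -0.01 over all genes). Differences were negative for 34 of the 37 genes and positive for Ddx58, Ifitm3 and Oas2. By limma's moderated test with Benjamini-Hochberg adjustment over all genes, 3 genes were called lower and none higher at an adjusted p under 0.05. The background was 3.94% of all genes called in either direction and 1.94% called lower. In 19 of the 37 genes all 3 day 1 arrays lay below all 3 controls, against 8.51% of all genes.

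In the ADP-ribosyltransferase group all 4 genes were lower on day 1, and 2 of them were called. Dtx3l encodes a ubiquitin ligase that works in a complex with Parp9, and its level was 10.24, 10.41 and 10.31 on the control arrays, 9.70, 9.47 and 9.62 on day 1, 10.25, 10.25 and 10.77 on day 2, 10.24, 9.68 and 9.86 on day 3, and 9.86, 10.38 and 9.88 on day 4. Every day 1 array lay below every control, and the other days overlapped with control. The day 1 difference was -0.72 ± 0.17 (SE, n = 3 arrays per group; 1.65-fold lower), with a limma adjusted p of 0.0319. Parp9, an ADP-ribosyltransferase family member, read 9.27, 9.65 and 9.40 in controls, 8.87, 8.85 and 8.85 on day 1, 9.30, 9.32 and 9.66 on day 2, 9.21, 8.88 and 9.28 on day 3, and 8.99, 9.48 and 8.95 on day 4. It fell by 0.58 on day 1 (SE 0.15, 1.50-fold lower, limma adjusted p = 0.0479), and the 3 day 1 arrays differed from each other by less than those of any other group. Parp14 (-0.50) and Parp12 (-0.22), of the same family, also had day 1 arrays wholly below control but were not called. Dtx3l, Parp9 and Parp14 adjoin each other in the genome.

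Trim25, the ubiquitin ligase that activates the RNA sensor encoded by Ddx58, was the other gene called. It read 10.22, 10.21 and 10.48 in controls, 9.75, 9.83 and 9.87 on day 1, 9.97, 9.80 and 10.27 on day 2, 10.10, 9.91 and 9.90 on day 3, and 10.15, 10.38 and 10.08 on day 4. On day 1 it fell by 0.49 (SE 0.12, 1.40-fold lower, limma adjusted p = 0.0363), and day 3 also lay wholly below control, by 0.34 (difference -0.34, limma adjusted p = 0.17).

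These 3 calls were near the threshold. Over 25 alternative settings and left-out arrays Dtx3l stayed lower in all and called in 18, Trim25 was called in 12 and Parp9 in 10, with adjusted p from 0.017 to 0.102, from 0.016 to 0.16 and from 0.0218 to 0.158. The call of Dtx3l ended without any 1 of the day 1 or control arrays, and so did those of Parp9 and Trim25. Parp9 also lost its call without day 2 replicate 1 or 2, day 3 replicate 1 or 3, or day 4 replicate 1, and Trim25 without day 2 replicate 1, day 3 replicate 3 or day 4 replicate 1. The count of genes called fell from 3 to 1 without day 1 replicate 1, day 2 replicate 1, day 3 replicate 3 or day 4 replicate 1, and to 0 without day 1 replicate 2 or 3 or control replicate 1 or 2. It rose to 6 without day 4 replicate 2. With the values as deposited Dtx3l alone was called, and with median centring no gene was.

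Irgm1 and Irf1 had some of the largest day 1 differences and just missed the threshold. Irgm1 encodes an immunity-related GTPase that acts against intracellular microbes and in autophagy. It read 9.72, 9.52 and 8.44 in controls, 8.23, 7.06 and 7.56 on day 1, 9.65, 9.33 and 9.09 on day 2, 9.55, 8.15 and 8.53 on day 3, and 8.08, 9.09 and 7.92 on day 4. Control replicate 3 lay more than 1 below its partners, and day 1 was still below it. The day 1 difference, -1.61 ± 0.43 (3.05-fold lower), had a limma adjusted p of 0.0531 and a 95% interval from -2.53 to -0.69. Gbp3, the other measured GTPase, read 6.88, 7.15 and 6.72 in controls and 6.83, 6.34 and 6.46 on day 1, which overlap, with 7.49, 7.25 and 7.17 on day 2, 7.08, 6.71 and 6.96 on day 3 and 6.50, 7.30 and 6.45 on day 4.

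Irf1 encodes a transcription factor of the programme that is induced through GAS elements. Its levels were 11.11, 10.99 and 10.58 in controls, 10.37, 10.05 and 10.12 on day 1, 10.83, 10.74 and 10.86 on day 2, 10.81, 10.03 and 10.09 on day 3, and 10.64, 10.39 and 10.29 on day 4. The day 1 difference was -0.71 ± 0.19 (limma adjusted p = 0.0515). A second Irf1 probe set, not used in the fit, read 8.23, 7.68 and 7.63 in controls and 7.82, 7.28 and 7.56 on day 1, lower on average but overlapping. Irf7, the factor that amplifies type I interferon production, differed by -0.17 on day 1, and Sp100, a nuclear body protein gene, by -0.25, neither called. Sp100 read 7.99, 8.45 and 8.70 in controls, 8.21, 8.06 and 8.12 on day 1, 8.50, 8.90 and 9.01 on day 2, 8.50, 8.41 and 8.21 on day 3, and 8.65, 9.49 and 8.22 on day 4.

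**Figure D2:**
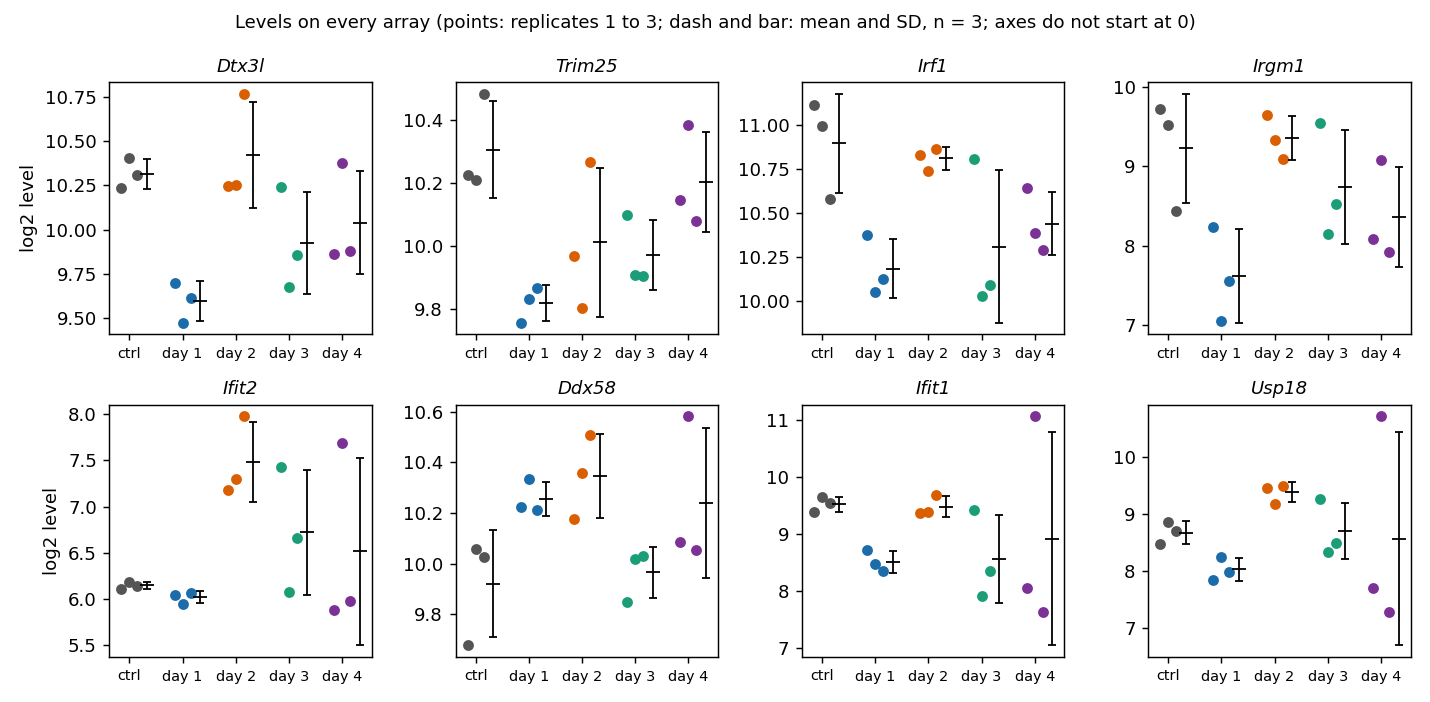
Log2 levels of 8 interferon-stimulated genes on each of 15 arrays, with the mean and SD of each group (n = 3); the axes differ between genes and do not start at 0. Dtx3l, Trim25, Irf1 and Irgm1 have day 1 points below all control points, Ifit2 has all day 2 points above control, and in Ifit1 and Usp18 replicate 2 of day 4 reads above 10.5 while its partners read 8.05 or less.

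Among the nucleic acid sensors the genes differed in direction on day 1. Ddx58, which encodes the RNA sensor RIG-I, read 9.68, 10.06 and 10.02 in controls, 10.22, 10.33 and 10.21 on day 1, 10.18, 10.36 and 10.51 on day 2, 9.85, 10.02 and 10.03 on day 3, and 10.09, 10.58 and 10.05 on day 4. It was the only measured gene of the list with every day 1 array above every control (0.34 ± 0.14, limma adjusted p = 0.261; 6.08% of all genes), and day 2 was also wholly above (0.43 ± 0.14, limma adjusted p = 0.167). Zbp1, a sensor of Z-form nucleic acid, went the other way and read 10.11, 9.97 and 9.15 in controls, 9.28, 8.75 and 8.59 on day 1, 10.21, 10.04 and 10.14 on day 2, 10.26, 8.84 and 9.74 on day 3, and 8.17, 9.62 and 8.16 on day 4. Its differences from control were -0.87 on day 1 and -1.09 on day 4, neither called. Dhx58 and Ifih1, related RNA helicase sensors, differed by -0.41 and -0.24 on day 1.

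The 11 effector genes of translation block, RNA decay and nucleotide supply gave no call on any day with all arrays. Ifit1, whose protein binds RNA with a foreign cap, read 9.39, 9.64 and 9.54 in controls and 8.71, 8.47 and 8.35 on day 1, then 9.36, 9.38 and 9.69 on day 2. It continued at 9.42, 7.91 and 8.35 on day 3 and 8.05, 11.07 and 7.63 on day 4. Day 1 lay wholly below control, by a difference of -1.01 ± 0.65 (limma adjusted p = 0.552), with an SE that pools all groups, among them day 4 with an SD of 1.87.

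Ifit2, a related RNA-binding protein gene, behaved differently. It read 6.11, 6.19 and 6.15 in controls and 6.04, 5.94 and 6.07 on day 1, close to the background of 4.88 to 5.50, and 7.18, 7.30 and 7.98 on day 2. It then read 7.42, 6.07 and 6.66 on day 3 and 5.88, 7.69 and 5.98 on day 4. Every day 2 array lay above every control and every day 1 array. The day 2 difference from control was 1.33 ± 0.41 (2.52-fold, limma adjusted p = 0.131), from a starting level near background, where intensities compress fold changes.

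On day 2 the genes lay above control, by a median of 0.20 (against -0.02 over all genes). Differences were positive for 29 of 37 genes, and none was called in either direction by limma (4 had an unadjusted p under 0.05, 3 higher and 1 lower). The background was 2.57% of all genes called, at an adjusted p under 0.05. No share of all genes was counted at an unadjusted p, here or for later counts at that threshold. In 9 genes (Ddx58, Gbp3, Ifih1, Ifit2, Oas2, Oas3, Oasl2, Trim30a and Usp18) all day 2 arrays lay above all controls, against 8.09% of all genes. Cmpk2, a mitochondrial nucleotide kinase gene and the neighbour of Rsad2, lay wholly below control on day 2, as did 9.44% of all genes, by a difference of -0.45. It had read 9.34, 9.43 and 9.48 in controls, 8.58, 8.82 and 8.32 on day 1 and 8.98, 8.80 and 9.14 on day 2, then 8.74, 8.73 and 8.51 on day 3 and 9.30, 10.25 and 8.74 on day 4.

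Oas2 and Oas3, which make the oligoadenylate that activates RNase L, had day 2 differences of 0.94 ± 0.32 and 0.50 ± 0.30. Oas2 read 7.36, 6.98 and 7.32 in controls, 7.36, 7.52 and 7.31 on day 1, 7.92, 8.18 and 8.40 on day 2, 7.64, 7.15 and 7.45 on day 3, and 7.07, 8.68 and 7.08 on day 4. Oasl2, an oligoadenylate synthetase-like gene, read 9.81, 9.82 and 9.74 in controls, 9.66, 9.54 and 9.32 on day 1, 10.43, 10.41 and 10.26 on day 2, 9.78, 9.33 and 9.80 on day 3, and 8.59, 10.73 and 8.72 on day 4. Both genes were higher on every day 2 array than on any control or day 1 array.

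Usp18 and Herc6 act on ISG15, a ubiquitin-like tag; Usp18 removes it and Herc6 attaches it in the mouse. Usp18 read 8.46, 8.85 and 8.69 in controls, 7.84, 8.24 and 7.97 on day 1, 9.45, 9.18 and 9.49 on day 2, 9.25, 8.33 and 8.49 on day 3, and 7.69, 10.71 and 7.28 on day 4. Herc6 read 8.82, 9.51 and 8.89 in controls, 8.65, 8.33 and 8.18 on day 1, 9.41, 9.54 and 9.30 on day 2, 8.77, 8.22 and 9.06 on day 3, and 7.96, 10.08 and 7.59 on day 4. For both, day 1 lay below every control and below every day 2 array, and day 4 held both the highest and the lowest of the 15 values. Against control, the day 1 differences of -0.65 and -0.68 and the day 2 differences of 0.71 and 0.35 were not called.

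The step from day 1 to day 2 was positive for all 37 measured genes, with a median of 0.60 against -0.01 over all genes. All 3 day 2 arrays lay above all 3 day 1 arrays in 27 of the 37, against 5.41% of all genes. None was called by limma, which called 0.201% of all genes at an adjusted p under 0.05. An unadjusted p under 0.05 was found in 24 of the 37, without a matching share of all genes. The largest steps were in Irgm1 (1.74 ± 0.43, limma adjusted p = 0.166), Ifit2 (1.46 ± 0.41, 0.257), Usp18 (1.35 ± 0.62, 0.704) and Zbp1 (1.26 ± 0.40, 0.378). Dtx3l had the smallest adjusted p (0.82 ± 0.17, 0.0873). In 17 genes day 1 lay below all controls and day 2 above all of day 1, an arrangement seen in 2.25% of all genes. Ifit2, Oasl2 and Usp18 also had day 2 above every control, which 0.11% of all genes did.

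The smallest steps were in Lgals3bp, a secreted glycoprotein gene (0.07, 95% interval -0.22 to 0.36), Bst2, which encodes the virus-tethering membrane protein tetherin (0.08, -0.09 to 0.26), and Ddx58 (0.09, -0.21 to 0.39). Bst2 read 8.38, 8.29 and 8.43 in controls, 8.26, 8.54 and 8.24 on day 1, 8.38, 8.46 and 8.46 on day 2, 8.32, 8.24 and 8.39 on day 3, and 8.41, 8.31 and 8.36 on day 4. It overlapped with control on every day. Lgals3bp read 11.64, 11.43 and 11.61 in controls, 11.37, 11.58 and 11.42 on day 1, 11.70, 11.53 and 11.35 on day 2, 11.67, 11.28 and 11.57 on day 3, and 11.12, 11.55 and 11.08 on day 4.

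The other membrane gene, Ifitm3, whose protein hinders virus entry, varied widely within groups. It read 10.34, 9.57 and 9.50 in controls, 10.60, 9.54 and 10.03 on day 1, 10.68, 10.84 and 9.59 on day 2, 10.45, 10.51 and 10.60 on day 3, and 9.60, 9.81 and 9.52 on day 4. Day 3 was the tight group and lay wholly above control (0.72 ± 0.32, limma adjusted p = 0.278), the only gene of the list to do so on that day, against 12.3% of all genes.

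None of the 3 genes of peptide supply to MHC class I was called, and their median difference was -0.30 on day 1 against control and 0.55 from day 1 to day 2. Tap1, the peptide transporter, read 9.86, 9.86 and 9.35 in controls, 9.32, 9.16 and 8.75 on day 1, 10.17, 9.84 and 9.64 on day 2, 9.64, 9.08 and 9.48 on day 3, and 9.11, 9.46 and 8.71 on day 4. Its day 1 arrays lay below all controls and all day 2 arrays (difference from control -0.61, limma adjusted p = 0.176). The immunoproteasome subunit Psmb8 read 9.46, 9.75 and 9.26 in controls, 9.78, 9.04 and 9.20 on day 1, 10.06, 10.01 and 9.61 on day 2, 9.64, 9.54 and 9.66 on day 3, and 9.38, 9.56 and 8.90 on day 4, with overlaps throughout. Psmb9, another subunit, differed by -0.30 on day 1 and 0.07 on day 2.

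Rtp4, a receptor-transporting protein gene, and Xaf1, a pro-apoptotic gene, had their lowest group means on day 3 and day 1. Rtp4 read 8.19, 8.40 and 8.81 in controls, 8.23, 7.57 and 7.96 on day 1, 8.56, 8.75 and 8.86 on day 2, 8.13, 7.34 and 7.69 on day 3, and 7.46, 9.40 and 7.28 on day 4. Xaf1 read 7.81, 7.74 and 7.84 in controls, 7.53, 6.93 and 6.97 on day 1, 7.72, 7.59 and 7.87 on day 2, 7.42, 6.78 and 7.28 on day 3, and 7.09, 8.20 and 7.04 on day 4. Day 3 lay wholly below control in both, with differences of -0.75 and -0.64 that were not called.

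From day 2 to day 3 the level went back down in 35 of 37 genes, by a median difference of -0.43 (0.02 over all genes). In 20 genes every day 3 array lay below every day 2 array, against 5% of all genes. No gene of the list was called by limma (12 had an unadjusted p under 0.05, all lower), and 0% of all genes were. Against control, day 3 differences were negative for 28 of 37 genes (median -0.22), none was called (7 had an unadjusted p under 0.05, 6 of them lower), and 2.96% of all genes were called. In 9 genes day 3 lay wholly below control, against 9.9% of all genes. RANKL day 3 replicate 1 was above the mean of its partners in 35 of 37 genes, with a median excess of 0.26.

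**Figure D3:**
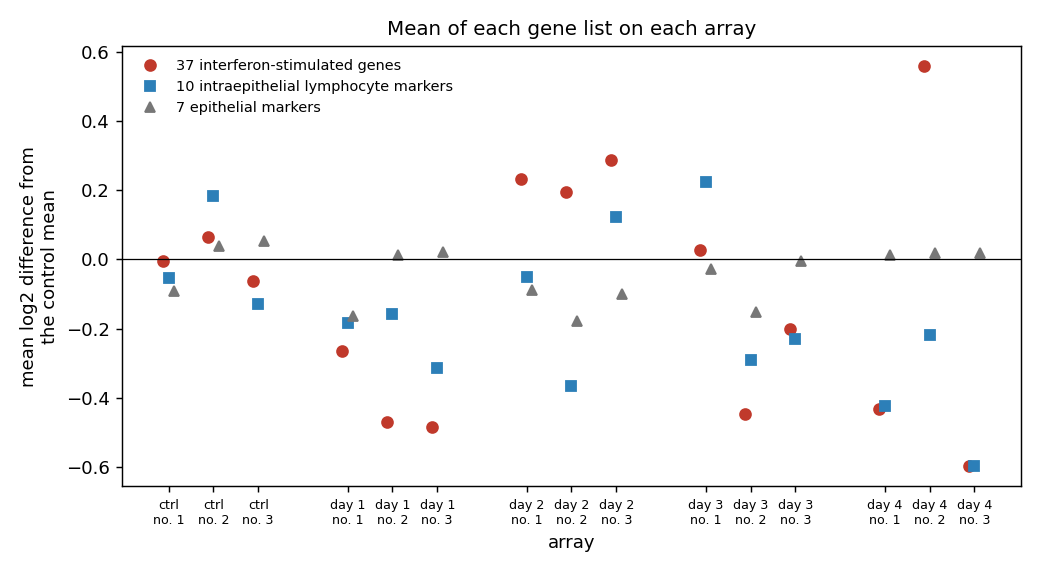
Mean log2 difference from the control mean on each of 15 arrays, for the 37 interferon-stimulated genes, 10 intraepithelial lymphocyte markers and 7 epithelial markers. The interferon-stimulated genes run from -0.60 to 0.56, with both ends on day 4, while the epithelial markers stay between -0.18 and 0.05.

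On day 4 the 3 arrays did not form a group. Replicates 1 and 3 lay below every control in 26 of 37 genes (8.3% of all genes), replicate 2 lay above every control in 24 (28.2% of all genes), and both held at once in 17 (0.421% of all genes). The median SD of the measured genes within day 4 was 0.527, against 0.074 over all genes, and within the controls it was 0.191 against 0.118. Replicate 2 was the highest of all 15 arrays for 19 of the 37 genes, against 4.71% of all genes. Replicate 3 was the lowest for 11.

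The excess of day 4 replicate 2 over the mean of its partners had a median of 0.91 and was positive in 35 of 37 genes. Over all 19938 genes, 45 (0.226%) differed by more than 1 in either direction, and 17 of these were on the list. The 6 with the largest excess in the whole table were Ifit1 (3.22, 9.35-fold), Usp18 (3.22, 9.34-fold), Ifit3 (2.50, 5.65-fold), Herc6 (4.94-fold), Oasl2 (2.08, 4.22-fold) and Rtp4 (2.03, 4.08-fold). By role, the median excess was 2.03 in the ISG15 and ubiquitin enzymes, 1.37 in the effectors and 1.18 in the sensors. It was 0.50 in the ADP-ribosyltransferases and 0.42 in the peptide supply genes. Irf1 and Bst2 were each at -0.08 and Isg20, an RNA exonuclease gene, at 0.04, so the array was not high in every gene of the list. These values chose the array, so no test is attached to them.

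**Figure D4:**
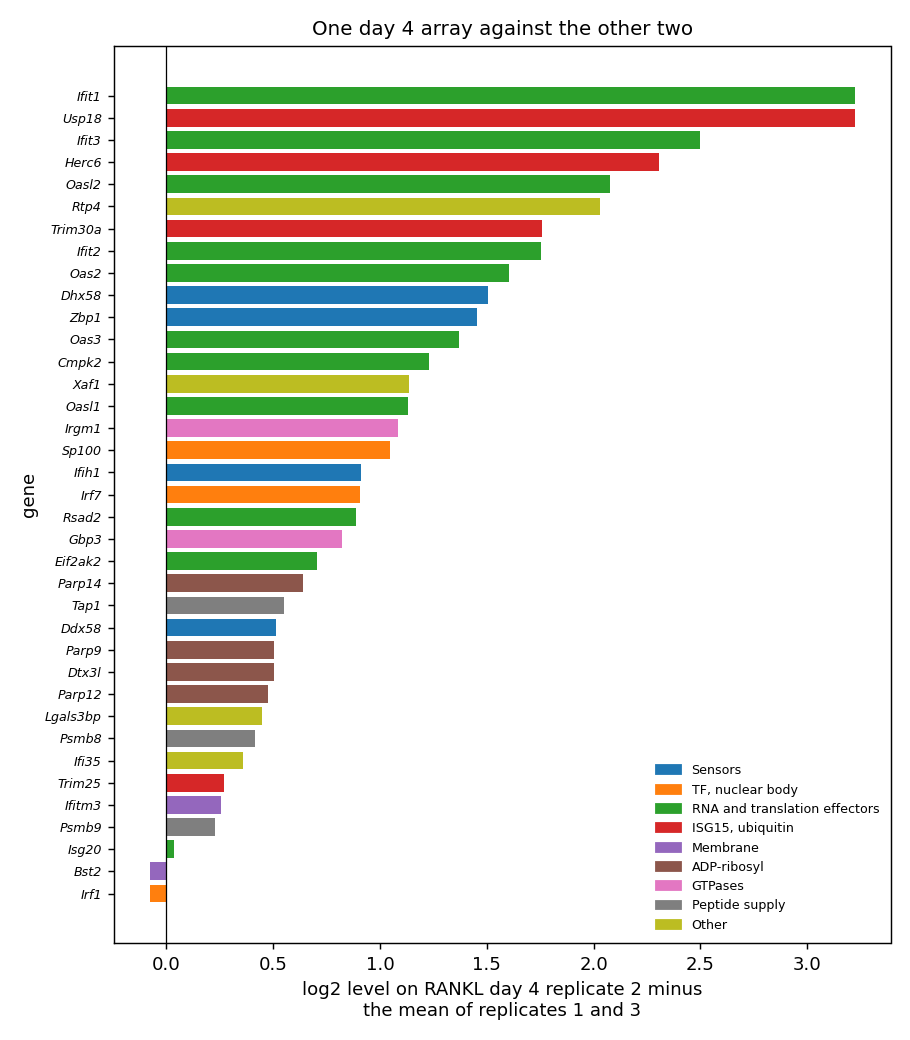
Bars give, for each of 37 interferon-stimulated genes, the log2 level on day 4 replicate 2 minus the mean of day 4 replicates 1 and 3. The bars reach 3.22 in Ifit1 and Usp18 and lie near 0 in Irf1, Bst2 and Isg20.

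By their medians, other lists on the same array moved less. Over all genes, 37 were higher by more than 1 and 8 lower. The largest excesses outside the list were in Ddx60 (1.88), Gm12250 (1.52), Tifa (1.50), Il33 (1.47), Lct (1.46) and Slc23a1 (1.38). Of 33 further interferon-stimulated genes, 3 exceeded 1, namely Ddx60, Rnf213 (1.38) and Cxcl9 (1.00). On the lower side were, among others, Scd2 (-1.23), Actg2 (-1.21) and Acta2 (-1.10). The median excess was 0.39 in 33 further interferon-stimulated genes, 0.24 in the intraepithelial lymphocyte markers (10 of 10 positive), 0.57 in 6 M cell markers, 0.02 in the epithelial markers, 0.00 in the interferon ligands and -0.22 in 6 stromal markers. Gp2, an M cell surface receptor gene, read 8.97, 10.17 and 8.95 on day 4. The part of cell makeup in the day 4 difference was not tested.

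With all arrays, day 4 gave no call against control (6 genes had an unadjusted p under 0.05 by limma, 5 of them lower), and the background was 0.908% of all genes. Differences were negative for 25 of 37 genes, with a median of -0.15. Isg20 was the only gene wholly above control (0.18 ± 0.09, limma adjusted p = 0.601), as were 12.1% of all genes. Between day 4 and day 3 no gene was called (3 with an unadjusted p under 0.05; background 0.015%), and between day 4 and day 1 none either (7, all higher; background 1.32%). The F test over the 4 days also called none, against 3.6% of all genes, and Dtx3l came nearest (limma adjusted p = 0.062).

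Without day 4 replicate 2 more genes passed in most comparisons. The SE of the Oasl2 day 2 difference was 0.40 with the array and 0.12 without it, and the day 4 differences grew as well, the median against control from -0.15 to -0.43. The median of day 4 minus day 1 turned from 0.24 to -0.09, and that of day 4 minus day 3 from 0.11 to -0.18. The latter was -0.01 without day 3 replicate 2. The array was singled out by these same genes, so the added calls are a description.

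On day 1 without that array, 6 genes were called lower, against 3.63% of all genes called: Dtx3l, Parp9 and Trim25 as before, with Cmpk2 (-0.85, limma adjusted p = 0.00798), Irgm1 (-1.61, 0.0413) and Ifit3 (-0.71, 0.0492). Ifit3, an RNA-binding partner of Ifit1, read 7.53, 7.50 and 7.28 in controls and 6.71, 6.79 and 6.69 on day 1. On day 2, 3 genes were called higher than control (background 2.51%): Oas2 (0.94 ± 0.15, limma adjusted p = 0.00345), Ifit2 (1.33 ± 0.27, 0.0187) and Oasl2 (0.58 ± 0.12, 0.0246). From day 1 to day 2, Oasl2, Usp18 and Trim30a, a tripartite motif family gene, were called higher (limma adjusted p = 0.0228, 0.032 and 0.0456; background 0.226%).

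On day 3 Cmpk2 alone was called, lower (-0.76, limma adjusted p = 0.0194; background 2.82%). On day 4, now with 2 arrays, 4 genes were called lower (background 0.471%): Oasl2 (-1.13 ± 0.14, limma adjusted p = 0.00184), Irf7 (-0.69, 0.0271), Ifit1 (-1.68, 0.0428) and Herc6 (-1.29, 0.0444). The day 4 difference was then negative in 33 of 37 genes. The F test called 15 genes (background 3.37%), Oasl2 with the smallest adjusted p (0.000181).

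**Figure D5:**
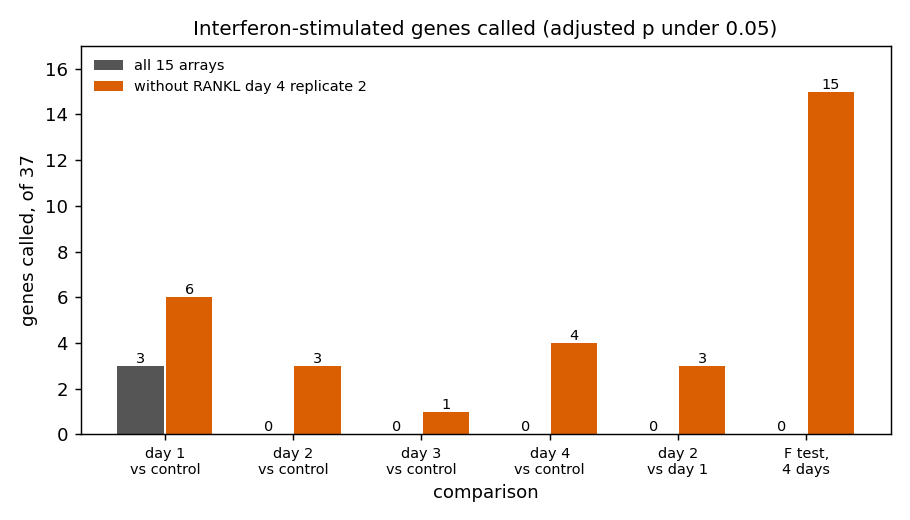
Number of the 37 measured interferon-stimulated genes called at a limma adjusted p under 0.05 in each comparison, with all 15 arrays and without RANKL day 4 replicate 2. The counts are 3, 0, 0, 0, 0 and 0 with all arrays and 6, 3, 1, 4, 3 and 15 without it. That array was singled out by these same genes, so the counts without it are a description.

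Genes that carry the interferon signal were read from 17 receptors and signalling factors. On day 1, Ifnar2 was called higher and Ifnlr1, Stat2 and Irf8 lower, against 3.94% of all genes called. Ifnlr1, the specific chain of the type III receptor, read 8.65, 8.64 and 8.90 in controls, 7.43, 7.84 and 7.60 on day 1, 7.39, 7.16 and 7.34 on day 2, 7.40, 7.22 and 7.21 on day 3, and 7.92, 7.40 and 7.60 on day 4. It was lower on every treated array than on any control, with differences of -1.10, -1.44, -1.45 and -1.09 and a largest limma adjusted p of 0.000992. Ifnar2, a chain of the type I receptor, went the other way, from 7.57, 7.61 and 7.42 in controls to 8.57, 8.16 and 8.59 on day 1, and it rose by 0.90, 1.32, 1.14 and 0.98 on the 4 days (largest limma adjusted p 0.00184). Both receptor differences kept their sign on every day. Whether these receptors or Stat2 bear on the levels of the listed genes was not tested.

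Stat2, a subunit of the complex that binds the ISRE, was lower on day 1 and near control on day 2. It read 9.63, 9.63 and 9.42 in controls, 8.88, 8.83 and 8.85 on day 1, 9.58, 9.43 and 9.76 on day 2, 9.35, 8.75 and 9.04 on day 3, and 9.05, 9.55 and 8.98 on day 4. It fell by 0.71 on day 1 (limma adjusted p = 0.0222) and differed by 0.03 on day 2. Irf9, another subunit, differed by -0.43 on day 1 (limma adjusted p = 0.0828). Of 10 listed interferon genes 8 were measured and none was called; Ifng read 6.66 to 6.98 and Ifnb1 5.75 to 5.99 over all arrays.

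Further interferon-stimulated genes outside the list did not all follow it. Of 33 measured, 2 were called higher and 2 lower on day 1, where 3.94% of all genes were called. On day 2, 5 were called higher, against 2.57% of all genes called. Differences from control were negative for 22 of the 33 on day 1 and positive for 22 on day 2. The chemokine genes Cxcl10 and Cxcl11, whose products attract T cells, rose on day 1 by 0.95 and 1.58 (limma adjusted p = 0.00993 and 0.00144), while Gbp7 and Samhd1 fell by 1.41 and 0.68 (0.037 and 0.0422). On day 2 Cxcl9, Cxcl10, Cxcl11, Slfn2 and Gbp9 rose, by 1.89, 1.17, 1.46, 1.00 and 0.89. From day 1 to day 2 the difference was positive in 28 of the 33, with a median of 0.22 against -0.01 over all genes.

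Markers of other cells were read on the same arrays. All 10 intraepithelial lymphocyte markers were read, with Ccl5 at 10.81 to 11.66 and Cd3e at 8.75 to 9.78, well above the background of 4.88 to 5.50 on every array. None was called on any day. By limma, 1 of the 10 had an unadjusted p under 0.05 on day 1, 0 on days 2 and 3 and 5 on day 4, all lower. Differences of these markers were negative for 10 of 10 on day 1 (median -0.17) and 10 of 10 on day 4 (median -0.48). From day 1 to day 2 they were positive for 5 of 10 (median -0.01, range -0.20 to 1.09). For this step 1 of the 10 markers had an unadjusted p under 0.05 by limma, higher. Averaged over the list, they ran from -0.13 to 0.18 in controls, -0.31 to -0.16 on day 1, -0.36 to 0.12 on day 2, -0.29 to 0.22 on day 3 and -0.60 to -0.22 on day 4. Of 9 myeloid and dendritic cell markers, 3 were higher and 6 lower than control on day 1. By limma, 4 had an unadjusted p under 0.05 on day 1 (2 higher, 2 lower) and 4 on day 2 (3 higher, 1 lower). Csf1r, the receptor gene of macrophage growth factor, was the only 1 called on day 1, lower by 0.36 (limma adjusted p = 0.0458). It was higher on day 4 than on day 1 by 0.51 (limma adjusted p = 0.0156). The median of these 9 was -0.15 on day 1, 0.04 on day 2 and 0.16 from day 1 to day 2, and their mean against control ran from -0.18 to 0.00 on day 1 and from 0.00 to 0.06 on day 2. None of the 4 B cell or 6 stromal markers was called. The part of these cells in the interferon-stimulated genes' levels was not tested, and in bulk RNA fewer cells of a type cannot be told apart from less RNA per cell. Spib, the transcription factor gene of M cells, rose by 4.57, 4.67, 3.74 and 2.46 on days 1 to 4 (largest limma adjusted p 3.67e-05).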

How the data were processed

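Epithelium released with 30 mM EDTA for 10 min was hybridised to 15 Affymetrix arrays. The deposited intensities (25.95 to 24106.7, linear) are the authors' processed values; how they were summarised and normalized is not given in the sources used here. The genome build mm9 is named in the submitters' processing notes. Their log2 values, without an added offset, were quantile normalized. A single symbol was listed for 21789 probe sets, several for 1621 and none for 5443, and for the 999 genes with several probe sets the one with the highest mean was kept, which left 19938 genes. Paralogs such as the Ifit, Oas, Gbp and Trim30 families may share signal.

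One linear model with 5 group means was fitted in limma 3.58.1 (R 4.3.3), with 10 residual and 3.49 prior degrees of freedom, and Benjamini-Hochberg adjustment over all genes (two-sided, called under 0.05). It was also run on simulated data with independent noise in each gene. Those data held no genes that vary together and no outlying array, so nothing is concluded from them here. The number of arrays limits precision. Alternatives were other scaling, an offset of 16, the dimmest 40% of genes left out, probe set means, a trended prior, array weights, a replicate block, fits of 2 groups and each array left out.

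The genes and lists were chosen with earlier results of these data known. Every array's value is given for genes called in any comparison with control and for the 2 genes of each role with the largest difference. It is also given for those with the highest and lowest mean. Cmpk2, Oas2 and Oasl2 were added after their values were seen. Ifit3 was added in the same way, with its control and day 1 values only. For other lists, up to 4 called genes are named per day, except that all 5 called further interferon-stimulated genes are named on day 2. Stat2, Irf9, Ifng, Ifnb1 and Ifnlr1 are always named, and Gp2 and Spib once.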

Additional observations from a re-analysis of the deposited data

Results flagged for a closer look

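For Ifit2, Oasl2 and Usp18 every day 1 array lay below and every day 2 array above all 3 controls. In Ifit2, near background, the day 1 difference from control was only -0.13 (limma adjusted p = 0.94). The difference between day 2 and day 1 was 1.46 in Ifit2 (limma adjusted p = 0.257), 0.86 in Oasl2 (0.705) and 1.35 in Usp18 (0.704), none past the threshold with all arrays. The mean over the 37 measured interferon-stimulated genes also lay below every control on day 1 and above every control on day 2, a difference of 0.645 that was not tested.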

How the results depend on the processing

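No named gene's day 1 difference (Dtx3l, Parp9, Trim25) changed sign under any setting run. The list's median did in comparisons with day 4: day 4 minus day 1 was 0.24 with all arrays and -0.09 without day 4 replicate 2, and day 4 minus day 3 was 0.11 with all arrays, -0.18 without day 4 replicate 2 and -0.01 without day 3 replicate 2. Of the day 1 calls, median centring left 0 (2.41% of all genes called) and the unscaled deposited values 1 (2.92%). There were 5 with the dimmest 40% of genes left out (7.11%) and 7 with array weights (7.61%), a fit that gave a convergence warning. Array weights also gave 10 genes higher from day 1 to day 2 (3.57% of all genes called) and 3 from day 1 to day 4 (6.97%). They gave 13 in the F test, where they called 12.3% of all genes, against 3.6% in the main fit. The dim filter and the trended prior gave 1 each in the F test (6.34% and 3.38%). Fitting only the 2 groups compared gave 5 genes higher on day 2 (2.28% of all genes called) and 1 lower on day 3 (2.63%). Leaving out 1 array at a time gave 0 to 6 calls on day 1, 0 to 3 on day 2, 0 to 1 on day 3, 0 to 4 on day 4, 0 to 3 from day 1 to 2, 0 from day 2 to 3, 0 to 1 from day 3 to 4 and from day 1 to 4, and 0 to 15 in the F test. Leaving out both day 1 replicate 2 and day 4 replicate 2, chosen after seeing the data, gave 3 calls on day 2 (3.57% of all genes). There were then 3 on day 3 (5.74%) and 6 on day 4 (0.687%). It also gave 1 from day 3 to 4 (0.13%), 1 from day 1 to 4 (0.567%) and 13 in the F test (4.72%). Apart from the removal of arrays or genes, the cause of these differences was not tested. Same-numbered arrays were compared by their deviations from the group means over all genes. These deviations did not correlate above 0.1 in every pair (r from -0.12 to 0.38, -0.20 to 0.39 and 0.04 to 0.50 for numbers 1, 2 and 3). The numbers were therefore not taken as pairs, although all pairs of number 3 were positive. A replicate block gave 4 calls on day 1 (Irf1 and Irgm1 in, Parp9 out), against 5.28% of all genes called. It gave 1 on day 3 (Irf1, against 3.57%) and 3 in the F test (against 4.86%). The 3 arrays of a group limit precision, and Ifit2 lay near background in controls.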
